A study of Arabidopsis thaliana with 12 samples.

Results

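Flowers of the Arabidopsis thaliana accession Rsch, labelled Rsch-0, were set against flowers of 9 other natural accessions, with 1 Rsch array among the 12 arrays of the series. A probe set was taken as apart in Rsch where its signal lay outside the range of the 9 other accessions and at least 4-fold from their median, both on the scale log2(signal + 16). This held for 15 of 22746 probe sets, a share of 0.0659%. In 4 of them Rsch was higher (0.0176%) and in 11 lower (0.0484%). The rule used the very contrast described here, so these values are a description with no test.

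The study followed saiginols, flavonols that carry a phenylacyl group and are made in flowers of some accessions only. Total RNA from whole flowers was hybridized to ATH1 arrays, on which each probe set reads 1 transcript or a few similar ones. The groups were Rsch and the further saiginol producers RLD, C24, Cvi and Da, and the non-producers Col-0, Ler, Sap, Stw and Ws. All were untreated plants raised on agar and then in soil, C24 and Col-0 were hybridized in duplicate and averaged here, and each of the other accessions had 1 array. No array repeats Rsch, so the spread between Rsch plants is unknown and no p-value can be given. The array titled Sap carries RLD as its ecotype label and the one titled Stw carries Sap-0, and the titles were used.

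Natural accessions are inbred lines that differ by many sequence variants. Some genes are deleted, silenced or differently regulated in a few of them, which gives an almost on-or-off pattern of transcript level across accessions. ATH1 probes were designed on the sequence of Col-0, so a low signal in another accession can come from less transcript or from a probe that binds a variant sequence poorly, and these cannot be told apart here.

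The Rsch array had a median signal of 47.8, against 46 to 51.1 on the 11 other arrays. The carpel regulators ALC and SPT gave 212.7 and 75.9 in Rsch, inside the ranges of the other accessions, as did all 7 measured carpel and ovule genes and all 9 pollen genes. The root gene PYK10 was at 14.3 in Rsch, against 8.6 to 17.7, close to the level of probe sets for bacterial genes that were not added, which reached at most 16.6 on any array. For the 11 entries of flower organ identity genes the annotation used pairs no probe set, so these defining markers were not analysed here. The 3′ to 5′ signal ratio of ubiquitin, a measure of RNA integrity, was 1.51 in Rsch and 0.878 to 1.44 on the other arrays, whereas that of GAPDH was 0.887 in Rsch, inside their range of 0.832 to 1.08. The part of this in the results was not tested.

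In the higher direction, the locus that stood most clearly alone was AT2G12050. It is annotated as a transcribed pseudogene, a degenerate gene copy that still gives RNA, on chromosome 2 at 4857014 to 4858186 (TAIR10.1). Its probe set, 266152_s_at, had a signal of 247.5 in Rsch, against 15.6 in C24, 37.5 in Ws, the highest of the others, and a median of 24.5 over the 9 accessions. The log2 difference from that median was 2.70. The 9 other accessions lay close together near the bacterial control level, and none came within 2-fold of Rsch. The suffix _s_at marks a probe set that can also read similar transcripts.

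AT2G19980, a protein-coding locus on chromosome 2 at 8627536 to 8628220, had a signal of 106.4 in Rsch and a median of 14.2 elsewhere, with a log2 difference of 2.02. C24 was next at 82.8. The duplicate C24 arrays read 54.6 and 122.3, so 1 of them exceeded Rsch, and the place of Rsch above C24 rests on their average.

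The other higher probe sets each list several genes, and no gene is named from them. Probe set 262319_s_at, listed for 2 genes, reached 1579.9 in Rsch and 1293.7 in Ler. The 8 further accessions ranged from 2.4 in C24 to 274.6 in Cvi. Its log2 difference of 3.65 was the largest of the 4 higher ones, yet Rsch shared the high level with Ler. Probe set 245651_s_at, listed for 5 genes, was at 887.5 in Rsch, 802.4 in RLD, 741.2 in Ws, 686.7 in Col-0 and 547.6 in Ler. The remaining accessions reached at most 125.5. Rsch was thus 1 of 5 accessions at the high level, and only the median, which fell in the low set, placed the probe set past 4-fold.

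Among the lower probe sets, AT4G32240 was the only one for which no other accession was near Rsch. This protein-coding locus on chromosome 4 at 15568264 to 15569564 gave a signal of 0.3 in Rsch. The others ran from 110.5 in Sap through a median of 193.3 to 355.8 in Cvi, and RLD was at 198.4. The log2 difference from the median was −3.68, the largest of all 15, and the gap to the nearest accession was 2.96. All 11 other arrays read at least 105.6, so Rsch was the sole accession at background in this probe set.

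For 3 more named loci, Rsch shared its low level with RLD and 1 further accession while the rest lay higher. AT1G73490, on chromosome 1 at 27633183 to 27634990, was at 27.8 in Rsch, 41.8 in RLD and 41.4 in Cvi, against 357.1 to 488.8 in the 7 other accessions, and its log2 difference was −3.37. AT2G14460, on chromosome 2 at 6154493 to 6155166, was at 0.4 in Rsch, 2.8 in RLD and 1.0 in C24, against 76.2 to 98.1 in the others, with a log2 difference of −2.69. In both loci the higher accessions lay within a narrow range. AT5G41870, on chromosome 5 at 16758709 to 16760576, was at 7.9 in Rsch, 18.5 in RLD and 13.7 in Sap, against 55.7 to 175.1 in the others, and its log2 difference was −2.43. Here the higher accessions were spread more widely, with Cvi at 55.7 and Da at 71.0.

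AT2G01090, on chromosome 2 at 79779 to 81710, was at 1.0 in Rsch, 1.6 in Ler, 5.5 in RLD and 14.0 in Cvi, against 143.9 to 201.1 in the other accessions, with a log2 difference of −3.40. AT1G26710, on chromosome 1 at 9232328 to 9233206, was at 3.6 in Rsch and 9.3 in Stw, against 61.7 to 151.8 elsewhere, with a log2 difference of −2.28. In both, and in AT2G14460, AT5G41870 and 252459_s_at, at least 1 other accession was also at or below 16.6, so the order of Rsch and that accession at the bottom carries no meaning.

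Another 5 lower probe sets list several genes or none. Probe set 250433_at, listed for 5 genes, was at 27.5 in Rsch and 35.6 in RLD, against 184.5 to 394.3 in the 8 others, with a log2 difference of −2.80. Probe set 250635_at was at 7.8 in Rsch and 24.1 in RLD, against 123.9 to 515.1, with a log2 difference of −2.72. In both, Rsch and RLD formed the low pair with no further accession near them. Probe set 252459_s_at was at 1.0 in Rsch, 4.8 in RLD, 3.0 in Stw and 8.7 in Ws, against 81.4 to 108.7 elsewhere (log2 difference −2.57). Probe set 258310_at was at 70.2 in Rsch, 85.3 in RLD and 89.2 in Sap, against 321.8 to 600.7 in the others (log2 difference −2.03). Its low level lay well above the bacterial controls. Probe set 253087_at was at 18.4 in Rsch and followed a graded series from 52.6 in Cvi to 335.7 in Da (log2 difference −2.13), with no break into a high and a low set.

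**Figure D1:**
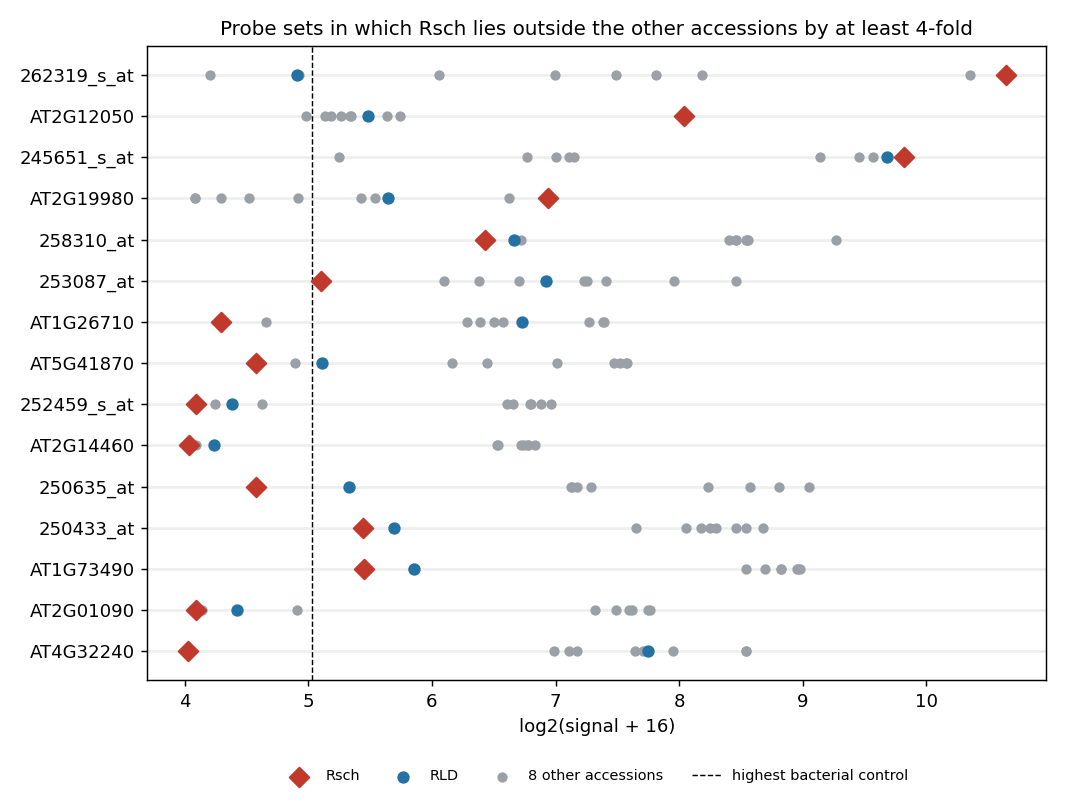
Signals of the 15 probe sets, as log2(signal + 16), in Rsch (red diamonds), RLD (blue) and the 8 other accessions (grey), with the 4 higher probe sets on top, and the highest bacterial control signal of 16.6 as a dashed line. AT2G12050 and AT4G32240 are the probe sets without another accession within 2-fold of Rsch, and in 8 of the 11 lower ones the blue point lies within 2-fold of the red one.

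Across the 11 lower probe sets, RLD was within 2-fold of Rsch in 8, Cvi in 3, Sap and Stw in 2 each, and C24, Ler and Ws in 1 each. Col-0, whose sequence the probes follow, and Da were within 2-fold of Rsch in 0 of 11. In the 4 higher probe sets Ler was within 2-fold of Rsch in 2, and C24, Col-0, RLD and Ws in 1 each. Of all 22746 probe sets, 279 were at least 2-fold apart between Rsch and RLD. Against the other accessions the number was 377 (Col-0) to 612 (Cvi). Because the rule puts Rsch at least 4-fold from the median, it keeps most of the other accessions beyond 2-fold in every one of the 15. In 7 of the 11 lower probe sets the Rsch signal was at or below 16.6, and the lowest Rsch signal above it was 18.4. The probe sets nearest the threshold inside it were AT2G19980 (2.02) and 258310_at (−2.03). The nearest outside were AT3G55870, at 1.99 with a signal of 120.7 in Rsch against 1.0 to 74.8 in the others, though 1 C24 array read 132.4, and 266310_at, at −1.88 with 22 in Rsch against 31.2 to 141.1. The duplicate arrays give a measure of array error in C24 and Col-0, not in Rsch. Of all 22746 probe sets, 123 differed at least 4-fold between the C24 duplicates and 8 between the Col-0 duplicates. Of the 15, 0 were among either, and with so few over all probe sets this says little about the 15. The counts depend on the scale and on single accessions. With a pseudocount of 1 the rule gave 39 higher and 164 lower probe sets, and with one of 64 it gave 2 and 2. Without RLD among the others 8 were higher, and without Sap 2.

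Of the 15 probe sets, 8 are named for 1 gene, 3 for several and 4 for none. All 8 named loci carry only a locus number in RefSeq, without a gene symbol, as do 88.5% of all probe sets named for 1 gene, and no role is given for them here. By position, 4 of the 8 (50%) lie on chromosome 2, which holds 16.4% of all probe sets named for 1 gene, and 2 (25%) on chromosome 1, which holds 25.7%. Chromosomes 4 and 5 have 1 each, with 14.6% and 22.4% of all. Probe sets marked _s_at or _x_at made up 4 of 15 (26.7%), against 4.66% of all. Over the probe sets within 100 kb of each locus, 12 to 32 in number, the median log2 difference of Rsch lay between −0.05 and 0.04, while single neighbours reached −1.23 and 1.33, both beside AT1G26710.

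When each accession was set against its 9 others by the same rule, Rsch was neither the most nor the least divergent. The rule gave 15 probe sets for Rsch, 5 for RLD, 11 for Col-0, 14 for Stw, 16 for Sap, 20 each for C24 and Da, 22 for Ws and 23 each for Cvi and Ler. Among these, 4 were higher in Rsch, against 2 to 16 in the others. Lower probe sets numbered 11 in Rsch, against 2 to 12. At 2-fold in place of 4-fold the count for Rsch was 107, with 30 higher (0.132%) and 77 lower (0.339%), and it was the lowest of the 10 accessions, the others having 108 to 272. Without any limit on size, Rsch was above the range of the others in 7.64% of probe sets and below it in 10.5%.

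**Figure D2:**
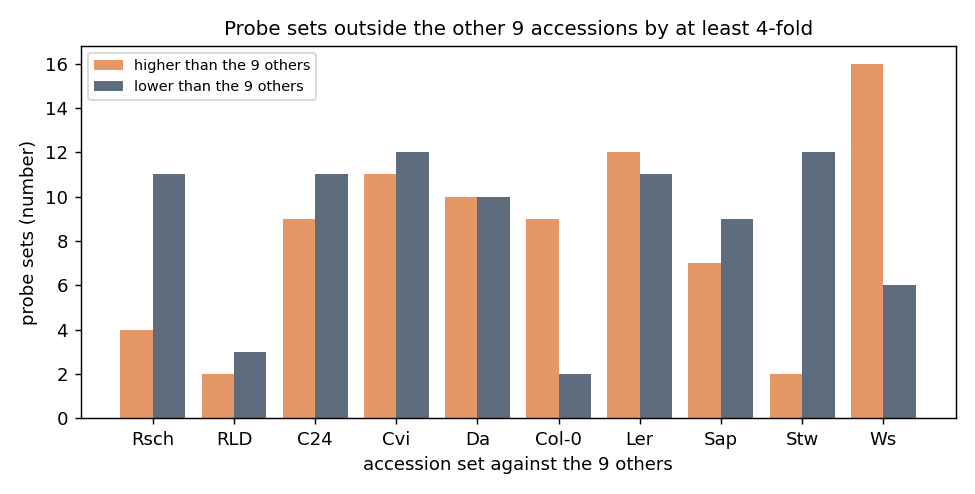
Number of probe sets in which each accession lies above (orange) or below (grey) the range of its 9 others and at least 4-fold from their median. Rsch has 4 higher and 11 lower, and the totals of the others run from 5 in RLD to 23 in Cvi and Ler.

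Pairwise, RLD was the accession closest to Rsch. Only 21 probe sets differed at least 4-fold between Rsch and RLD, 11 higher and 10 lower in Rsch, the fewest of the 45 pairs of accessions, whose median was 58. Against the 8 other accessions, Rsch differed in 44 (Col-0) to 72 (Ws) probe sets. With the 15 probe sets left out the counts were 17 for RLD and 32 to 59 for the 8 others. Pearson's r across probe sets was 0.975 with RLD and 0.964 to 0.973 with the others, given as a description over genes that are not independent and share the arrays. This place of RLD rests on probe sets of moderate and high signal. With a pseudocount of 1, which gives weight to dim probe sets, Rsch and RLD differed in 618 and the pair ranked 17 of 45. Rsch and the 8 other accessions then differed in 437 to 830, so RLD was not the closest in that setting. The array titled Sap, with its ecotype label RLD, differed from Rsch in 52 probe sets.

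**Figure D3:**
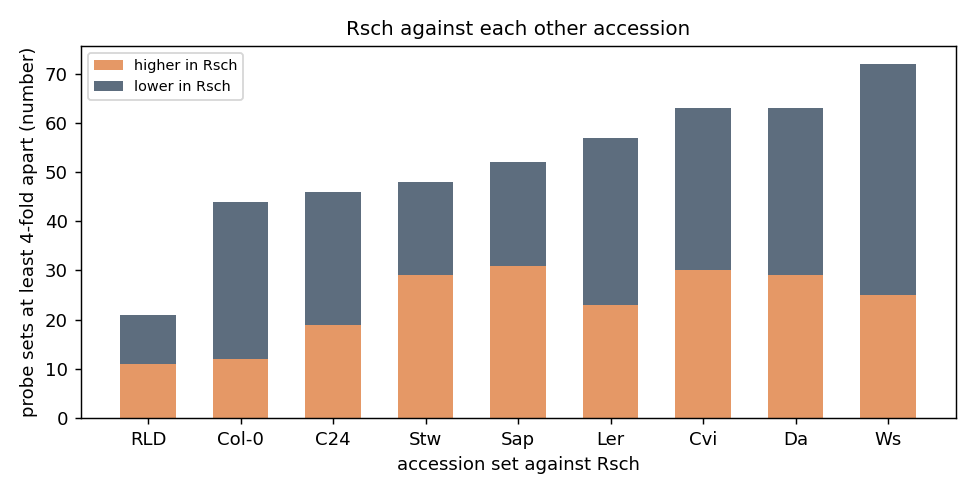
Number of probe sets at least 4-fold apart on the log2(signal + 16) scale between Rsch and each other accession, divided into those higher (orange) and lower (grey) in Rsch. RLD has 21 and the other accessions 44 to 72.

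Among the 21 probe sets that separated Rsch from RLD, 5 named loci were higher in Rsch, and for 4 of them another accession lay within 2-fold of Rsch. AT4G29200 was at 444.3 in Rsch and 16.3 in RLD. C24 reached 821.3 and all other accessions stayed at or below 22.2, so Rsch and C24 alone had a high signal. AT2G15560 was at 400.6 in Rsch and 35.5 in RLD, with Cvi (699.3), Stw (490.4) and Ws (352.7) also high. AT3G47320, annotated as a pseudogene on chromosome 3 at 17433459 to 17433966, was at 113.5 in Rsch and 0.5 in RLD. Ler was at 138.1, Cvi at 16.4 and the other accessions were near 0, which makes this a locus read in Rsch and Ler only above the bacterial controls. In the opposite direction, AT2G25450 was at 12.9 in Rsch and 397.6 in RLD, with Sap at 308.7, Col-0 at 164.6 and Ws at 136.3 and the others at or below 35.1. AT4G02540 was at 5.7 in Rsch, 91.0 in RLD and 79.8 in Col-0, and at most 16.4 elsewhere. The 2 loci without an accession near Rsch, AT2G12050 and AT4G32240, were also among the 21.

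In 6 probe sets, 4 higher and 2 lower, Rsch and RLD both lay outside the range of the 8 other accessions and at least 4-fold from their median. Over the 45 pairs this number ran from 0 to 8, with a median of 1. The lower ones were 250433_at and 250635_at. Of the higher ones, psbA is the named gene. It is encoded in the chloroplast genome and makes the D1 protein of photosystem II. Its signal was 677.3 in Rsch and 779.4 in RLD, against 540.8 in Ws, 391.9 in Stw and 64 to 157.1 in the other 6 accessions. Probe set 251241_s_at was at 1290.0 in Rsch and 1568.1 in RLD, against 13.5 to 610.3. With Ler, Rsch stood apart in the same way in 5 probe sets, among them AT3G47320, and AT3G44430, at 2.3 in Rsch and 0.9 in Ler. RLD (4.0) and Sap (3.9) were as low for AT3G44430, so this pair was no closed set.

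FPT2 (AT2G22960), the serine carboxypeptidase-like gene at the centre of the study, lies on chromosome 2 at 9770894 to 9772977. Its signal was 262.1 in Rsch, second to RLD at 307.9, with C24 at 254.9, Cvi at 221.1 and Da at 197.5. Ler was at 89.8 and the other non-producers at no more than 31.2. Rsch was therefore within the range of the others, at a log2 difference of 1.39 from their median, and within 2-fold of the 4 other producers. Of the 49 loci in the list of serine carboxypeptidase-like genes, 29 were measured. FPT2 itself, FPT1 and the genes of the cluster beside them on chromosome 2 are not among these 29. In Rsch, 0 of the 29 lay above the range of the other accessions and 2 below it, beside 7.64% and 10.5% of all probe sets. The median log2 difference of the 29 was −0.08. The 2 below, scpl30 at 9.4 and scpl44 at 11.6 in Rsch, were under the bacterial control level of 16.6, where signals have no order.

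The gene lists of flower metabolism were measured only in part. Measured were 6 of 25 phenylpropanoid and lignin loci, 4 of 18 flavonol loci and 3 of 21 anthocyanin and tannin loci. For sinapate esters it was 3 of 12 loci and for glucosinolates 5 of 40, so most of these pathways were not looked at. Among the measured genes, none was both outside the range of the others and at least 4-fold from their median in Rsch. The single member of any list that met both conditions was AT2G12050, 1 of 989 measured pseudogene probe sets. Smaller differences outside the range of the others, named after their values were seen, included several glycosyltransferases. UGT72E3, which glucosylates monolignols, the precursors of lignin, was at 61.6 in Rsch against 1.5 to 40.0 in the others, with RLD highest of them and a median of 13.9. UGT78D3, a flavonol arabinosyltransferase, was at 41.2 in Rsch against 1.0 to 35.5, with Col-0 highest and a median of 10.3. The log2 differences were 1.38 and 1.12. UGT78D1 and UGT78D2, which add rhamnose and glucose to flavonols, were at 123.5 and 135.3 in Rsch and differed from the medians of the others by −0.04 and 0.03. Of the 47 measured UGT genes, 6 were above the range in Rsch (12.8%) and 2 below it (4.26%), beside 7.64% and 10.5% of all probe sets. Among the 6, UGT74F1, a salicylate glucosyltransferase, was at 23.3 in Rsch against 2.2 to 21.3, and 1 of the C24 arrays, at 24.5, exceeded Rsch.

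CHIL, a chalcone isomerase-like protein that aids flavonoid synthesis, was at 132.4 in Rsch against 67.2 to 509.6 in the others, and so was low but within their range. In the anthocyanin and tannin pathway, DFR, the reductase that leads to anthocyanidins, was at 45.1 in Rsch against 17.9 to 82.5. The other genes measured there, BAN and UF3GT, were also within range. UGT74B1, which acts in glucosinolate core synthesis, was at 53.8 in Rsch and 59.7 in RLD, against up to 151.5. AOP1, of the dioxygenase family that modifies glucosinolate side chains, was at 79.9 in Rsch against 86.3 to 227.2. Both lay below the range by a small step only.

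Among genes of defence and cell wall, the defensin gene PDF2.5 was at 57.9 in Rsch and 47.7 in RLD, against 3.7 to 25.6 in the 8 others. CSLC04, a synthase of the xyloglucan backbone, was at 341.4 in Rsch against 85.4 to 318.4. The C24 duplicates read 238.2 and 424.0 for it, so 1 of them exceeded Rsch. GSTU20, a glutathione transferase of the tau class, was at 138.2 in Rsch against 195.3 to 548.7, with a log2 difference of −1.12. Of the 12 measured glutathione transferases 2 lay above and 2 below the range. Of the 28 cell wall expansion genes 3 lay above and 2 below, beside 7.64% above and 10.5% below over all probe sets. Among the transferases, GSTU25, above at 24.5, was exceeded by a C24 array (45.6) and a Col-0 array (31.4). GSTU18, below at 112.5, was higher than a Col-0 array (104.7).

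Of the tapetum, the cell layer that feeds developing pollen, only 2 listed genes were measured. AT5G07230 was at 247.6 in Rsch against 370.0 to 899.2. AMS, a transcription factor needed for tapetum function, was at 34.5 in Rsch. It was also low in Da (31.3), RLD (38.2), Ler (40.3) and Ws (53.5), against 99.9 to 183.8 in the remaining accessions. The 9 pollen genes had a median log2 difference of 0.01 and all lay within the range. In whole flowers, fewer cells of a type and less RNA per cell cannot be told apart. The cold response genes were also within range, COR15A at 1953.1 in Rsch against 644.9 to 4259.7 and COR47 at 1426.0 against 949.3 to 1786.2. Of genes known for natural variation in expression, QQS was at 6.4 in Rsch, against 7.5 in RLD and up to 1249.8 in Cvi, and ECS1 was at 74.1 in Rsch, against 9.6 to 2145.

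**Figure D4:**
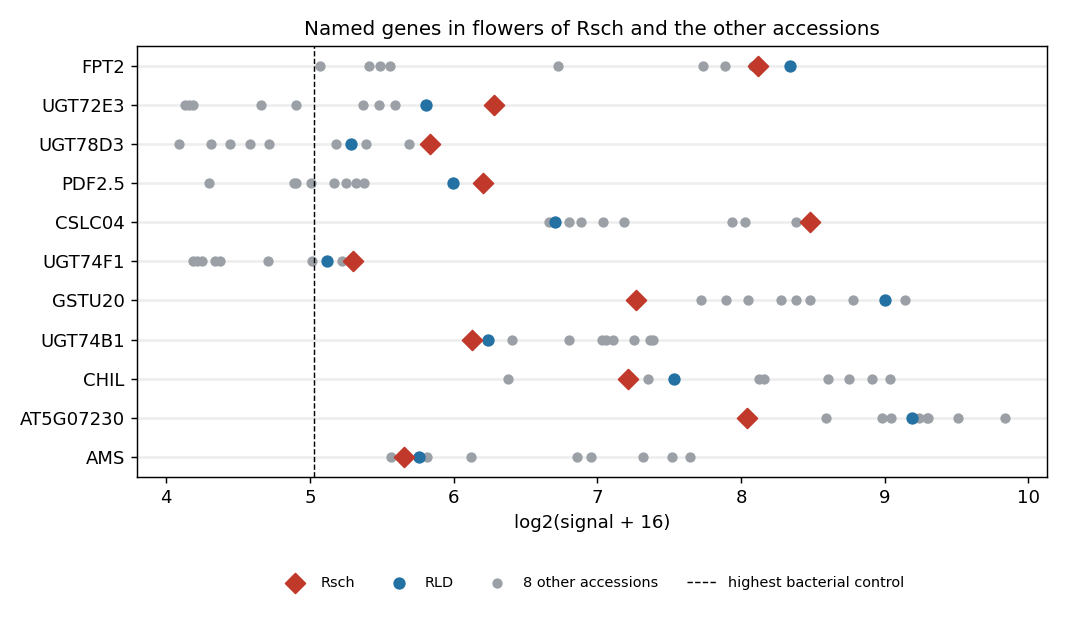
Signals of 11 named genes, as log2(signal + 16), in Rsch (red diamonds), RLD (blue) and the 8 other accessions (grey), with the highest bacterial control signal dashed. FPT2, CHIL and AMS are within the range of the others in Rsch, and the other 8 genes lie outside it.

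Genes of the chloroplast genome were mostly low in Rsch, by a small amount. Of the 69 probe sets, 59 were lower in Rsch than the median of the others and 10 higher, with a median log2 difference of −0.18, against −0.01 over all probe sets. Below the range were 14 (20.3%, against 10.5% of all probe sets) and above it 1, rps18. Among the 14 were psaI of photosystem I, at 103.7 in Rsch against 120.2 to 253.5, psbT of photosystem II, at 46.9 against 54.2 to 204.2, and rpoA of the plastid RNA polymerase, at 246.6 against 289.0 to 707.9. Single Col-0 arrays read lower than Rsch for psaI (99.4), psbT (29.1), rps19, psbC, psaB, atpI and rpoB. A single C24 array did so for ycf3. The place of these genes below the range rests on the average of the duplicates. For atpI (13.6) and rpoB (9.3), Rsch was also under the bacterial control level of 16.6, where signals have no order. For rpoA, rpl14, ycf4, psbI, atpA and atpF, no other array read lower than Rsch. psbA was higher, as given above. The shift was not particular to Rsch. Set against their own 9 others, Col-0 had a median of −0.24, Da of −0.18, RLD of −0.16 and C24 of −0.10, whereas Ler was at 0.62 with 67 of 69 positive. Rsch minus RLD gave −0.12, and the duplicate arrays differed by 0.10 in C24 and −0.02 in Col-0. The nuclear genes of photosynthesis measured were within range in Rsch. RCA, which activates Rubisco, was at 2888.5 in Rsch against 2084.1 to 3085.2, and the antenna protein gene LHCB4.1 was at 2016.9 against 1893.4 to 2676.4.

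**Figure D5:**
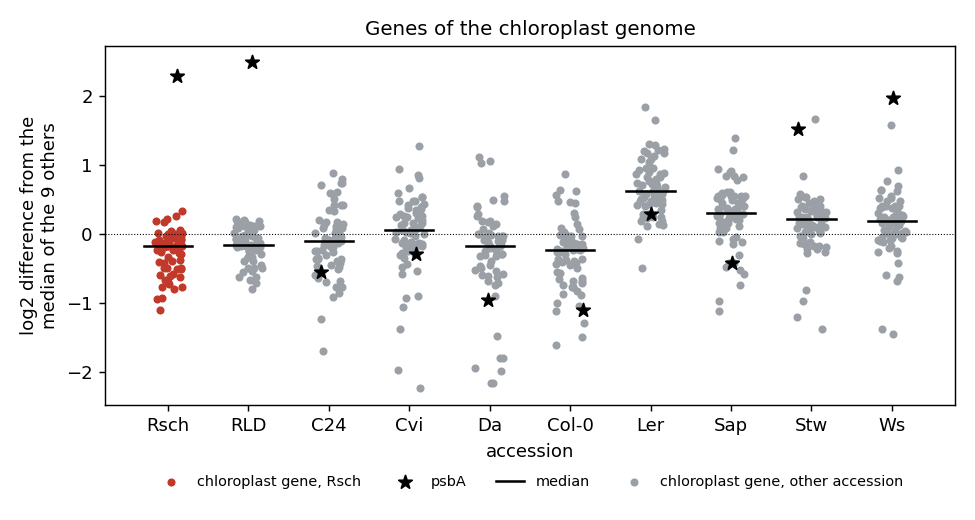
Log2 difference of each chloroplast gene's probe set from the median of the 9 other accessions, for Rsch (red) and every other accession (grey), with a line at the median of the 69 probe sets and a star for psbA. Rsch has a median of −0.18 and psbA at 2.29, and medians of the others run from −0.24 in Col-0 to 0.62 in Ler.

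A few loci past 2-fold lay close together. AT1G26710, which was low in Rsch, lies 7830 bases from AT1G26730, which was at 106.1 in Rsch against 24.8 to 74.7, and both are within 100 kb of AT1G26800, at 6.9 against 20.6 to 69.4. Adjacent loci thus differed in opposite directions. AT1G60590 and AT1G60610, 10722 bases apart, were both higher, at 182.1 in Rsch against 43.6 to 110.9 and at 202.9 in Rsch against 67.4 to 127.8. AT3G47250 and AT3G47295 were both lower, at 0.6 in Rsch against 1.3 to 57.5 and at 120.3 in Rsch against 129.5 to 414.0. For AT3G47250, Rsch and the lowest of the others were both under the bacterial control level of 16.6. Their order at the bottom therefore carries no meaning. For AT3G47295, 1 C24 array read 114.8, below Rsch. Of the 63 probe sets past 2-fold that are named for 1 gene, 58 carry only a locus number. Probe set 252957_at, which names no gene, was at 779.7 in Rsch against 279.3 to 391.3, apart from an otherwise tight set of accessions. AT2G31150 was likewise at 0.9 in Rsch against 20.5 to 52.3.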

How the data were processed

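The deposited values are linear signal intensities, 1 per probe set and array, as the authors scaled them: the mean without the highest and lowest 2% is 100 on each array. The summarization software is not given in the sources used here, and the file holds no detection calls. The 64 control probe sets were left out. Signals were taken as log2(signal + 16), which understates changes of dim transcripts, and the duplicate arrays of C24 and of Col-0 were averaged on this scale. Rsch was described against the median and range of the 9 other accessions, with no test, since it has 1 array. The number of arrays limits the precision.

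Gene names come from GEO's platform annotation, updated through RefSeq (TAIR10.1). Of them, 13436 have 1 RefSeq gene, 77 have 1 gene not matched there, 503 have several and 8730 have none in this table. Every probe set past the rule with 1 gene is named, as are FPT2, list members that check the tissue, and list members past the rule. The members and the 37 gene lists, of which 20 have at least 3 measured genes, were chosen with earlier results of these data known. The 2-fold description, the comparison of Rsch with RLD, the genes named from them, and the list members named within 4-fold were chosen after values were seen. The symbol CHI, which RefSeq gives to a chitinase, was removed from the flavonol list after its value was seen.

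The selection was run on simulated data with large differences planted in probe sets of above-median signal. The simulated accessions did not differ otherwise, so this checks the computation and not how the rule behaves near background. Alternatives covered the pseudocount, scaling, filters, probe sets used, the fold, the centre, the averaging and the omission of each array or accession. Computation used Python 3.11.15, numpy 2.4.6 and pandas 2.3.3, and figures used matplotlib 3.10.9.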

Additional observations from a re-analysis of the deposited data

Results flagged for a closer look

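In 2 of the 16 probe sets looked at, the 15 past the rule and FPT2, 1 of the 9 other accessions stood far from the rest of them. For AT1G26710, Stw was lowest at 9.3 and the 8 further accessions had 61.7 to 151.8, with a gap of 0.593 of the whole range. For 250433_at, RLD was lowest at 35.6 and the rest had 184.5 to 394.3, with a gap of 0.655 of the range. Rsch, at 3.6 and 27.5, lay beside the accession that stood apart in both. The gaps were taken on the scale log2(signal + 16), and both exceed Dixon's 95% critical value for 9 values. The 15 probe sets were chosen by the values of these same accessions. Neither that critical value nor its rate of about 1 in 20 groups therefore holds for them, and the flags are a description only.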

How the results depend on the processing

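All 15 probe sets kept the sign of their difference under every alternative that held them, and the counts moved mainly with the pseudocount. Of 4 higher and 11 lower, a pseudocount of 1 gave 39 and 164, and one of 64 gave 2 and 2. Probe sets with 1 named gene only gave 2 and 6, and a threshold of at least 8-fold 1 and 3, by construction. Higher probe sets numbered 1 without those marked _s_at or _x_at, 2 against the mean of the others and 7 at 3-fold. Leaving out 1 array or accession at a time gave 2 (without Sap) to 8 (without RLD) higher and 10 to 11 lower. Without Sap and Stw together the counts were 3 and 11, and quantile normalization and median centring each gave 5 and 10. The cause of the other shifts was not tested.

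AT4G32240 and AT1G73490 passed the rule in 23 of 23 settings, and AT2G19980 in 15 of 23. The log2 difference of AT4G32240 was −7.22 with a pseudocount of 1. Between Rsch and RLD, 21 probe sets differed at least 4-fold. With a pseudocount of 1 there were 618, with 64 there were 6, and with 1 named gene only 9. Small list medians (pollen, cell wall, P450, defensins) changed sign with the scaling, and that of the chloroplast genome stayed between −0.19 and −0.14. No paired analysis was possible because the result comes from no test and Rsch has 1 array. Signals near 16.6 are at the background and have no order.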
